A study of Canis lupus familiaris with 18 samples.

Results

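Oxidative phosphorylation was followed through the nuclear genes of its 5 complexes in the fat of lean and obese dogs. The rule for its members uses gene symbols and no measured value, although the group was picked with earlier results of these data known. It takes symbols that start with NDUFA, NDUFB, NDUFC, NDUFS, NDUFV, UQCR, COX4 to COX8 or ATP5, together with SDHA, SDHB, SDHC, SDHD, CYC1 and CYCS, and without the assembly factors (NDUFAF) and LOC symbols. This gave 65 of the 15115 genes with a symbol of their own on the array, measured by 127 of 29254 probe sets (groups of short probes for a transcript). Complex I had 33 of the 65 genes, complex II 4, complex III 8, complex IV 9 and complex V 10, and cytochrome c is the remaining 1 (CYCS). NDUFA4, now known as a subunit of cytochrome c oxidase, and its paralogue NDUFA4L2 were counted with complex IV. A probe set was tested where it reached log2 4 in at least 4 of the 18 arrays. Of the 65 genes 64 passed, and COX6A2 did not. The probe set of highest mean stands for a gene.

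Complex I takes electrons from NADH and complex II, the succinate dehydrogenase of the citric acid cycle, takes them from succinate. Ubiquinone carries them to complex III and cytochrome c to complex IV, which reduces oxygen to water, and complexes I, III and IV pump protons whose return flow drives ATP synthesis in complex V. In white fat respiration supplies the ATP and the carbon flow for fatty acid and triglyceride synthesis, and mitochondrial genes are among those that differ between lean and obese fat in several species. Subunits encoded by mitochondrial DNA, and nuclear subunits such as COX5A whose probe sets carry several symbols, were not analysed here.

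Subcutaneous and gonadal fat was taken from 9 intact female beagles, 4 years old, after 24 weeks of feeding and an overnight fast. The 4 control dogs (dogs 1, 3, 4 and 9) were fed to keep their baseline weight and were lean. The 5 ad libitum dogs (dogs 2, 5, 6, 7 and 8) ate the same commercial diet freely and were obese. Each of the 18 arrays holds the RNA of a piece of whole fat from a dog, so that in every comparison below fewer cells of a type and less RNA per cell cannot be told apart. Per the labels only the subcutaneous arrays had been deposited before, so that a batch of arrays and the depot cannot be told apart either. All values are log2 signals, and a difference of 1 is a doubling on the linear scale. Since probe sets differ in how strongly they bind, no level is compared between genes.

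The tissue label was checked against marker genes. All 14 measured adipocyte markers reached log2 4 in every array. Skeletal muscle transcripts stood out in the subcutaneous arrays of control dogs 3 and 4 (16 and 18 of 19 muscle markers at or above log2 4) and in the gonadal array of ad libitum dog 2 (17 of 19), against 3 to 12 in the other arrays. Transcripts of ciliated epithelium stood out in the subcutaneous array of dog 4 and in the gonadal array of ad libitum dog 6. The results below are therefore also given without these 4 arrays. That leaves only control dogs 1 and 9 in subcutaneous fat and only ad libitum dogs 5, 7 and 8 in gonadal fat. Mesothelial markers had a median log2 deviation from their means of -2.56 to 1.78 in subcutaneous control arrays and -2.58 to -2.22 in subcutaneous ad libitum ones. In gonadal arrays it was 0.44 to 3.07 (control) and 0.88 to 4.01 (ad libitum). The highest subcutaneous control array thus lay within the gonadal range. No array was left out by these markers, and their part in the results was not tested. As a sign of RNA length, the gap between the 3' and 5' actin probes (log2), which widens with shorter RNA, ranged from 3.42 to 5.72 in subcutaneous control arrays, from 2.61 to 4.40 in subcutaneous ad libitum arrays, and from 1.91 to 4.84 in gonadal arrays.

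In subcutaneous fat the respiratory chain genes lay higher in the ad libitum dogs as a body, without any single gene passing the test. Of the 64 genes 63 had a positive difference, beside 51.1% of all 21484 tested probe sets, and COX7A1 was the exception. The median difference was 0.49 on the log2 scale, beside 0.012 over all tested probe sets. None of the 64 passed an adjusted p of 0.05 (limma, Benjamini-Hochberg), beside 2.36% of all probe sets in either direction (1.9% higher and 0.451% lower). At an unadjusted p under 0.05, 36 of 64 were higher, beside 14.9% of all probe sets, and 0 were lower, beside 8.76%. For 13 of the 64 every ad libitum dog lay above every control dog, which held for 5.78% of all probe sets, and for 0 every ad libitum dog lay below, beside 4.37%.

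**Figure D1:**
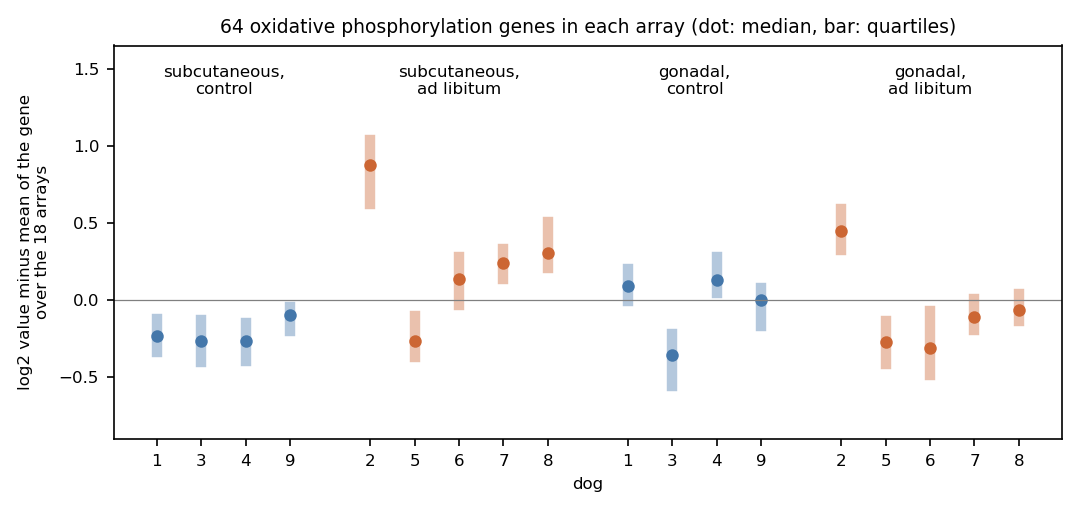
The log2 value of each of the 64 genes minus its own mean over the 18 arrays (y axis) is drawn for each dog (x axis), with the median as a dot and the quartiles as a bar, control dogs in blue and ad libitum dogs in orange. The subcutaneous arrays of the control dogs lie between -0.27 and -0.10, ad libitum dog 5 lies with them at -0.26, and ad libitum dog 2 stands highest in both depots (0.88 and 0.45).

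The spread among dogs was unequal. The median deviation of the genes from their means was -0.23, -0.26, -0.27 and -0.10 in the subcutaneous arrays of control dogs 1, 3, 4 and 9. In the ad libitum dogs 2, 5, 6, 7 and 8 it was 0.88, -0.26, 0.14, 0.24 and 0.31. The controls thus sat close together, and the ad libitum dogs spread from the level of the controls (dog 5) to far above it (dog 2). Dog 2 had the highest subcutaneous value of the 9 dogs for 63 of the 64 genes. Without dog 2 the median difference was 0.33 and still none of the genes passed. Without dog 5, in contrast, it was 0.61 and 20 genes passed as higher, in a fit that called 8.75% of all probe sets higher. Among the 20 were NDUFV2, NDUFB3, SDHC, SDHD, CYCS, NDUFA4, COX7A2L and ATP5J2.

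Markers of adipocytes moved with this result. All 14 lay higher in subcutaneous fat of ad libitum dogs (median difference 0.74), and 1 of them, LEP, passed (adjusted p = 0.0468). Their median deviation ran from -1.27 to -0.06 in subcutaneous control arrays and from -1.27 to 0.81 in ad libitum ones, where dog 5 was again the lowest and dog 2 the highest. With the adipocyte markers as a covariate the median difference of the respiratory genes was 0.20 (56 of 64 above 0), and with the actin gap as a covariate it was 0.29 (61 of 64 above 0). Without the 4 arrays named above, with control dogs 1 and 9 alone left in subcutaneous fat, it was 0.47 (63 of 64 above 0). At an unadjusted p under 0.05 (limma) these 3 fits held 5, 5 and 12 of the 64 genes, against 36 in the fit reported. The share of all probe sets at that level in these 3 fits is not given here. The muscle markers had a median deviation of -1.15 to 5.64 in the control arrays and of -1.10 to -0.02 in the ad libitum ones. Fibroblast and progenitor markers lay the other way, with a median difference of -0.66, 9 of 10 below 0 and 1, FBLN1, called lower (adjusted p = 0.0496), and their part in the result was not tested. Macrophage markers had a median of -0.02, with 7 of 14 above 0.

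All 33 measured genes of complex I had a positive difference in subcutaneous fat, with a median of 0.48. The 6 measured core subunits, of the electron-carrying part shared with bacteria, had a median of 0.53 and the 27 accessory subunits 0.48. NDUFV2, a core subunit with an iron-sulphur cluster, measured 10.86, 10.87, 10.91 and 11.43 in control dogs 1, 3, 4 and 9 and 12.25, 11.20, 11.61, 11.83 and 11.88 in ad libitum dogs 2, 5, 6, 7 and 8. The groups overlapped only through control dog 9 and ad libitum dog 5, and the difference was 0.74 ± 0.20 (SE, adjusted p = 0.0591), the smallest adjusted p of the 64 genes. NDUFB3, an accessory subunit of the membrane arm, measured 10.65, 10.75, 10.95 and 10.93 in the controls and 11.79, 11.02, 11.45, 11.32 and 11.36 in the ad libitum dogs. Here the groups did not overlap (0.57 ± 0.15, adjusted p = 0.0601). NDUFA13, also known as GRIM-19, had the largest difference of complex I (0.79 ± 0.29, adjusted p = 0.128), and NDUFB10 the smallest (0.05 ± 0.14, adjusted p = 0.84), although its second probe set stood at 0.26.

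Complex II links the citric acid cycle to the chain, and its 4 genes were all measured. SDHC, a membrane anchor subunit, measured 11.14, 11.29, 11.02 and 11.10 in the controls and 12.20, 11.48, 11.52, 11.71 and 11.86 in the ad libitum dogs. The groups did not overlap (0.62 ± 0.19, adjusted p = 0.0884). The other membrane anchor, SDHD, differed by 0.62 ± 0.22 (adjusted p = 0.117) and the iron-sulphur subunit SDHB by 0.52 ± 0.25 (adjusted p = 0.213). The flavoprotein subunit SDHA, which holds the succinate site, had the smallest difference of the complex, 0.15 ± 0.18 (adjusted p = 0.619).

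Cytochrome c and its electron donor in complex III had large differences and a wide spread. CYCS, the mobile electron carrier, measured 10.38, 10.64, 9.98 and 10.13 in the controls and 12.57, 10.59, 11.06, 11.03 and 11.38 in the ad libitum dogs. Dog 2 was far above the others and dog 5 lay within the controls. The difference, 1.04 ± 0.37 (2.06-fold, adjusted p = 0.115), was the largest of the 64 genes. CYC1, the cytochrome c1 subunit, measured 9.36, 9.20, 9.29 and 9.54 against 11.47, 9.40, 10.11, 9.96 and 10.18, again with dog 5 among the controls (0.87 ± 0.37, adjusted p = 0.167). UQCR11, a small subunit, differed by 0.87 ± 0.35 (adjusted p = 0.153). UQCRH, the hinge protein that assists the contact with cytochrome c, had the smallest difference of complex III (0.10 ± 0.12, adjusted p = 0.64). That rank belongs to its brightest probe set, since the 2 others of UQCRH stood at 0.52 and 0.54. The 8 genes of complex III had a median of 0.50.

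In complex IV, 7 of the 8 tested genes had a positive difference in subcutaneous fat and the median was 0.59. NDUFA4 measured 12.01, 12.00, 11.93 and 11.91 in the controls and 13.20, 12.10, 12.72, 12.73 and 12.79 in the ad libitum dogs. The groups did not overlap, and the controls lay close to each other (0.75 ± 0.21, adjusted p = 0.0708). COX7A2L, which helps to join complexes III and IV into supercomplexes, differed by 0.65 ± 0.23 (adjusted p = 0.117). COX8A, a small structural subunit, differed by 0.67 ± 0.31 (adjusted p = 0.195).

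In complex V all 10 genes lay higher, with a median of 0.42. ATP5J2, the f subunit of the membrane part, measured 11.58, 11.47, 11.56 and 11.63 in the controls and 12.87, 11.90, 11.98, 12.17 and 12.37 in the ad libitum dogs. ATP5MC1, 1 of 3 genes for the c subunit of the proton-driven ring, measured 10.54, 10.85, 10.65 and 10.72 against 12.49, 10.92, 11.41, 11.27 and 11.61. Neither gene overlapped between the groups, and the differences were 0.70 ± 0.23 (adjusted p = 0.0943) and 0.85 ± 0.33 (adjusted p = 0.14). ATP5MC2, another gene for the same c subunit, differed by 0.12 ± 0.15 (adjusted p = 0.631), the smallest difference of the complex. ATP5F1C, the gamma subunit of the rotor, stood at 0.51 ± 0.18 (adjusted p = 0.114).

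**Figure D2:**
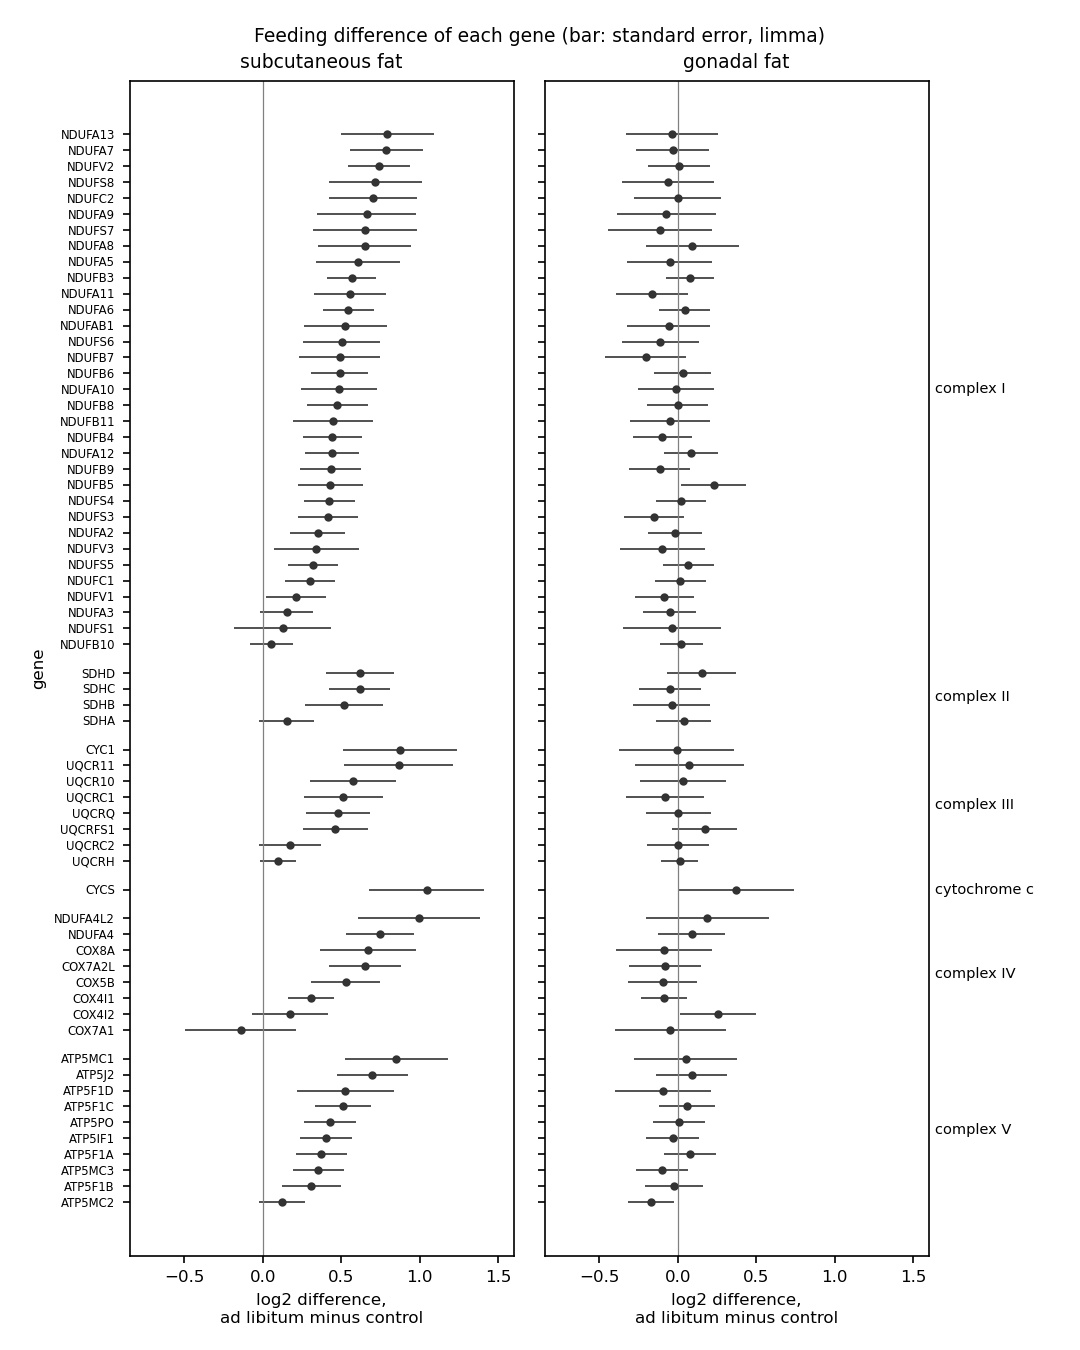
The ad libitum minus control difference (x axis, log2) of each of the 64 genes (y axis, ordered within each complex) is drawn for subcutaneous and for gonadal fat, with limma's standard error as a bar. In subcutaneous fat 63 of the 64 points lie to the right of 0, and in gonadal fat 29 lie to the right and 35 to the left.

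In gonadal fat of the same dogs the genes lay around 0. The median difference was -0.015, 29 of 64 were above 0 and 35 below, beside 52% and 48% of all probe sets. None of the 64 passed, and 0 of all 21484 probe sets did (limma, 0% called). At an unadjusted p under 0.05 there were 0 of 64, beside 1.3% of all probe sets higher and 1.17% lower. For 0 of 64 did the groups separate without overlap, beside 0.279% of all probe sets higher and 0.489% lower. CYCS again had the largest difference, 0.37 ± 0.37 (adjusted p = 1), and NDUFB7, an accessory subunit of complex I, the most negative, -0.20 ± 0.26 (adjusted p = 1). COX4I2 stood at 0.26 ± 0.24 and ATP5MC2 at -0.17 ± 0.15. NDUFB5, also of complex I, had the largest difference of that complex, 0.23 ± 0.21, and NDUFS3 stood at -0.15 ± 0.19. The complex II genes lay between -0.05 (SDHC) and 0.15 (SDHD).

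The gonadal arrays had their own extremes. Median deviations were 0.09, -0.36, 0.13 and 0.00 in control dogs 1, 3, 4 and 9, and 0.45, -0.27, -0.31, -0.11 and -0.06 in ad libitum dogs 2, 5, 6, 7 and 8. The groups overlapped over most of their range. Dog 2 held the highest gonadal value for 55 of the 64 genes, as it did in subcutaneous fat, and dog 3 the lowest for 28. Without dog 2 the median gonadal difference was -0.17 with 56 of 64 genes below 0. Adipocyte markers were at a median deviation of -0.90 in dog 3 and -0.88 in dog 6, the lowest of the gonadal arrays. The gonadal array of dog 2 carried muscle transcripts. That of dog 6 carried ciliated-cell transcripts. Without both of these, and without the subcutaneous arrays of dogs 3 and 4, the median was -0.09.

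The depot comparison within ad libitum dogs was the only comparison in which single subunits passed. NDUFS3 and NDUFA11, both of complex I, were lower in gonadal than in subcutaneous fat. That is 2 of 64 genes, a smaller share than among all probe sets, beside 4.36% of all probe sets called lower, 2.83% called higher and 7.19% in either direction. In all, 53 of 64 genes were below 0, beside 49.6% of all probe sets, with a median of -0.31 beside 0.004. At an unadjusted p under 0.05, 19 were lower, beside 12.8%, and 0 were higher, beside 10.7%. In 29 genes the gonadal value was below the subcutaneous value in each of the 5 dogs, beside 15% of all probe sets, and in 1 gene it was above in each, beside 13.2%.

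NDUFS3, a core subunit of the arm that reaches into the matrix, measured 12.68, 11.89, 11.87, 12.09 and 11.95 in subcutaneous fat of dogs 2, 5, 6, 7 and 8 and 11.91, 11.27, 11.40, 11.48 and 11.19 in their gonadal fat. It was lower in the gonadal array of every dog and fell by 0.64 on the log2 scale (SE 0.18, adjusted p = 0.0418), while its second probe set stood at -0.50 (adjusted p = 0.121). NDUFA11, an accessory subunit of the membrane arm, measured 11.02, 9.81, 10.05, 9.94 and 10.35 in subcutaneous and 10.12, 9.11, 9.32, 9.36 and 9.50 in gonadal fat. It too was lower in every dog and fell by 0.75 (SE 0.22, adjusted p = 0.0447). In the control dogs the same 2 genes differed by -0.08 ± 0.20 and -0.03 ± 0.24.

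Other subunits came near the threshold in the ad libitum dogs. UQCRC1, a core protein of complex III, measured 13.13, 12.24, 12.38, 12.42 and 12.63 in subcutaneous and 12.66, 11.45, 11.66, 11.53 and 11.63 in gonadal fat (-0.78 ± 0.24, adjusted p = 0.0556). CYCS measured 12.57, 10.59, 11.06, 11.03 and 11.38 against 11.30, 10.13, 9.36, 10.38 and 10.33 (-1.03 ± 0.35, adjusted p = 0.0825). For both genes the gonadal value was lower in each dog, although the groups as a whole overlapped through dog 2. NDUFA4 stood at -0.62 ± 0.20 (adjusted p = 0.0727), ATP5MC1 at -0.84 ± 0.31 (adjusted p = 0.11) and COX4I1 at -0.38 ± 0.14 (adjusted p = 0.104). On the other side of 0 were NDUFS1, the largest core subunit of complex I (0.36 ± 0.29, adjusted p = 0.488), and SDHA (0.18 ± 0.17, adjusted p = 0.543). The value of NDUFS1 rests on 1 of its 4 tested probe sets, and the others stood at -0.05, 0.008 and -0.09.

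**Figure D3:**
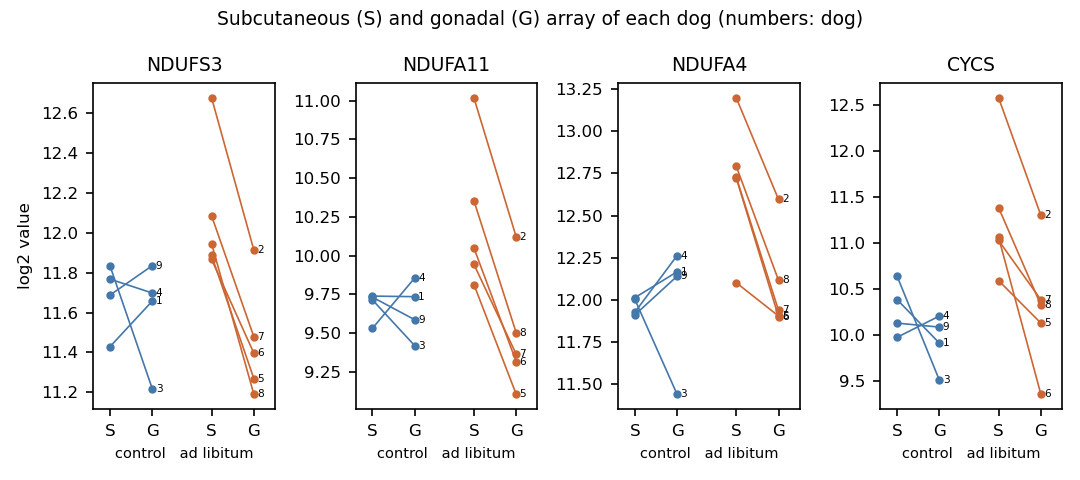
Log2 values (y axis) of NDUFS3, NDUFA11, NDUFA4 and CYCS in the subcutaneous (S) and gonadal (G) array of each dog, joined by a line and numbered by dog, with control dogs in blue and ad libitum dogs in orange (x axis). All 5 ad libitum lines go down from S to G in each of the 4 genes, while the lines of the 4 control dogs go both ways.

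Both depots of a dog are paired by the animal number in the labels. With the dog as a random block 8 subunits were called lower in gonadal fat of the ad libitum dogs, beside 6.74% of all probe sets. A fixed block for the dog gave 12, beside 4.98%, with NDUFS3, NDUFA11, UQCRC1, NDUFA4 and CYCS among them in both fits. Calls also depended on single dogs. Without dog 2 there were 6 calls, beside 3.43% of all probe sets called lower, and without dog 3 there were 3, beside 4.45%. Without dog 5, where 2.56% of all were called lower, only ATP5PO, which ties the motor of complex V to its stalk, was called, a gene named here after its values were seen. When dog 1, 4, 6, 7, 8 or 9 was left out there were 0. The median stayed between -0.39 and -0.27 in all these fits. Without the 4 arrays rich in muscle or ciliary markers 5 genes were called, beside 3.83%, and the median was -0.40. With adipocyte markers as a covariate 16 were called, beside 8.04%, and with the actin gap 8, beside 5.71%. The adipocyte markers themselves had a median depot difference of 0.01 in these dogs, with 7 of 14 above 0, and the mesothelial markers had a median of 4.53, with 5 of 6 called higher. Macrophage markers had a median of -0.88, with 14 of 14 below 0 and 2 called lower, TYROBP and MSR1. Fibroblast and progenitor markers had one of -0.39, with 8 of 10 below 0 and 2 called lower, PI16 and COL1A1. Smooth muscle markers stood at 1.61, with 8 of 9 above 0 and none called. The part of these other lists in the result was not tested.

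In the control dogs the depot difference leaned the other way. The median was 0.18, beside 0.036 over all probe sets, and 56 of 64 genes were above 0, beside 53.7%. None passed (limma, smallest adjusted p = 0.18), beside 2.92% of all probe sets, and at an unadjusted p under 0.05 only SDHD was higher (0.57 ± 0.23, adjusted p = 0.18), 1 of 64 beside 10.5% of all probe sets, and 0 were lower, beside 9.85%. The gonadal value was the higher in all 4 dogs for 17 genes, beside 15.3% of all probe sets, and the lower in all 4 for 0, beside 14.2%. NDUFC2 had the largest difference (0.59 ± 0.29, adjusted p = 0.271) and CYCS the most negative (-0.35 ± 0.39, adjusted p = 0.652). SDHD measured 8.39, 8.63, 8.36 and 8.63 in subcutaneous and 9.30, 8.77, 9.40 and 8.81 in gonadal fat of dogs 1, 3, 4 and 9. Dogs 1 and 4 carried most of that difference. With the actin gap as a covariate the median was -0.06 (24 of 64 genes above 0), and with adipocyte markers it was 0.00 (32 of 64 above 0). The adipocyte markers had a median depot difference of 0.73 in the control dogs, with 14 of 14 above 0 and 0 called. Larger medians were found for mesothelial (3.09, 5 of 6 above 0, UPK1B called), skeletal muscle (-3.88, 12 of 12 below 0, none called) and smooth muscle markers (1.58, 8 of 9 above 0, none called). Macrophage markers stood at -0.94 (14 of 14 below 0, none called) and fibroblast markers at -0.98 (9 of 10 below 0, PI16 and COL1A1 called lower). With muscle markers as a covariate the subunit median was 0.30, and the part of the other lists was not tested.

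The difference between the feeding responses, gonadal minus subcutaneous, was negative for 62 of 64 genes, beside 51.9% of all probe sets. Its median was -0.50, beside -0.020. None of the 64 passed (limma, smallest adjusted p = 0.748), and 0 of all 21484 probe sets did (0%). At an unadjusted p under 0.05, 8 were lower, beside 4.11%, and 0 were higher, beside 2.15%. With the dog as a random block 18 were lower at that level, beside 5.87% of all probe sets, and with the dog as a fixed block 35, beside 6.19%, again with none called. Adipocyte markers lay the same way (median -0.68, 14 of 14 below 0, none called), and skeletal muscle markers lay the other way (median 3.57, 12 of 12 above 0, none called). The subunit median was -0.25 with the actin gap as a covariate, with 0 at an unadjusted p under 0.05 beside 2.02% of all lower, and -0.31 with adipocyte markers. It was -0.67 with muscle markers. CYC1 had the most negative value (-0.88 ± 0.52, adjusted p = 0.748), followed by NDUFA13 (-0.83 ± 0.42). NDUFV2 had the smallest p of complex I (-0.73 ± 0.28, adjusted p = 0.748). The isoform genes COX4I2 (0.08 ± 0.34) and COX7A1 (0.09 ± 0.50) were the 2 above 0.

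Set out by dog, the depot difference separated the feeding groups for a number of genes. The median gonadal minus subcutaneous difference of the 64 genes was 0.31, -0.06, 0.38 and 0.14 in control dogs 1, 3, 4 and 9. It was -0.40, -0.01, -0.43, -0.35 and -0.39 in ad libitum dogs 2, 5, 6, 7 and 8. Control dog 3 and ad libitum dog 5 lay next to each other near 0, so that the groups overlapped. For 13 of the 64 genes every control dog had a higher depot difference than every ad libitum dog, beside 2.13% of all probe sets, and for 0 the reverse held, beside 1.3%. The 13 include NDUFA11, NDUFA13, NDUFB3 and NDUFV2 of complex I, SDHC, CYC1, COX4I1, COX8A, ATP5J2 and ATP5MC3. COX8A was the only gene above 0 in all 4 control dogs and below 0 in all 5 ad libitum dogs, a pattern found in 0.284% of all probe sets. COX8A measured 10.71, 10.23, 10.53 and 10.75 in subcutaneous and 11.28, 10.36, 11.41 and 10.96 in gonadal fat of the controls. In the ad libitum dogs it measured 12.19, 10.55, 11.04, 11.09 and 11.26 against 11.72, 10.54, 10.59, 10.87 and 10.85. Its difference of responses was -0.76 ± 0.43 (adjusted p = 0.748), and in dog 5 the depots were 0.01 apart.

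**Figure D4:**
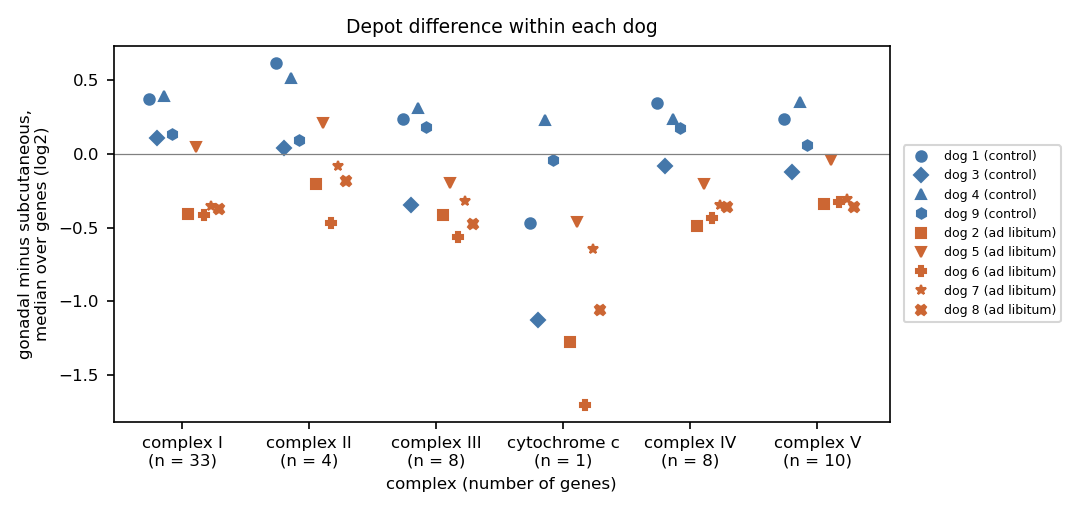
The gonadal minus subcutaneous difference (y axis, log2, median over the genes of a complex) is drawn for each dog, with a marker shape per dog, control dogs in blue and ad libitum dogs in orange, for the 5 complexes and cytochrome c (x axis, with the number of genes). Dogs 2, 6, 7 and 8 lie below 0 in every column, and dog 4 lies above 0 in every column.

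The medians of the 5 complexes had the same sign in each comparison, except for feeding in gonadal fat, where they lay near 0. Over the 33 genes of complex I the median feeding difference was 0.48 in subcutaneous and -0.04 in gonadal fat, and the median depot difference was 0.21 in control and -0.31 in ad libitum dogs. In the same order complex V had 0.42, -0.008, 0.16 and -0.27 over its 10 genes, and complex III 0.50, 0.007, 0.12 and -0.35 over its 8. Complex IV had 0.59, -0.06, 0.07 and -0.36 over 8 genes. Complex II, with 4 genes, had 0.57, -0.002, 0.26 and -0.12, and 2 of the 4 lay above 0 for depot in ad libitum dogs. CYCS stood apart from the complexes in the control dogs, where it was lower in gonadal fat in dogs 1, 3 and 9 and higher in dog 4.

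Some subunits have a tissue-type form. COX6A2, the heart and muscle form of its subunit, measured 6.12 in the subcutaneous array of control dog 3 and 4.07 in that of control dog 4. It lay between 3.46 and 3.75 in the other 16 arrays, which is below the filter, and it was not tested. These arrays of dogs 3 and 4 are 2 of the 3 with skeletal muscle transcripts. The third, the gonadal array of dog 2, had 3.66. COX7A1, another form that is abundant in heart, muscle and brown fat, ranged from 8.93 to 10.59 and had the only negative feeding difference in subcutaneous fat (-0.14 ± 0.35, adjusted p = 0.838). It measured 9.12, 10.14, 10.07 and 9.61 in the controls, highest in dogs 3 and 4, and 10.59, 8.98, 9.62, 9.70 and 9.09 in the ad libitum dogs. In gonadal fat it measured 9.70, 10.12, 9.43 and 9.76 in the controls and 10.14, 8.93, 10.46, 9.93 and 9.07 in the ad libitum dogs. Among the gonadal arrays muscle transcripts stood out only in that of dog 2. With muscle markers as a covariate all 64 genes, COX7A1 included, lay above 0 for feeding in subcutaneous fat, with a median of 0.62.

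COX4I2, the lung-type form of subunit IV, differed by 0.17 ± 0.24 with feeding in subcutaneous fat (adjusted p = 0.695), and its common partner COX4I1 by 0.31 ± 0.15 (adjusted p = 0.215). NDUFA4L2, which is known as a target of the hypoxia factor HIF-1 and as the paralogue of NDUFA4, measured 5.07, 3.63, 5.34 and 5.37 in subcutaneous fat of the controls and 6.15, 5.73, 5.78, 5.70 and 5.88 in that of the ad libitum dogs. The groups did not overlap, and dog 3 was far below the other controls (1.00 ± 0.39, adjusted p = 0.145). The value of dog 3 lies under log2 4, the level of the filter, so the size of this difference rests in part on a value near the floor. In gonadal fat NDUFA4L2 measured 5.34, 3.77, 5.32 and 4.91 against 5.65, 4.76, 4.17, 4.98 and 5.57. It was again lowest in dog 3 and again under log2 4 there, and the groups overlapped. Its depot difference in ad libitum dogs was -0.82 ± 0.37 (adjusted p = 0.186), negative in all 5.

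**Figure D5:**
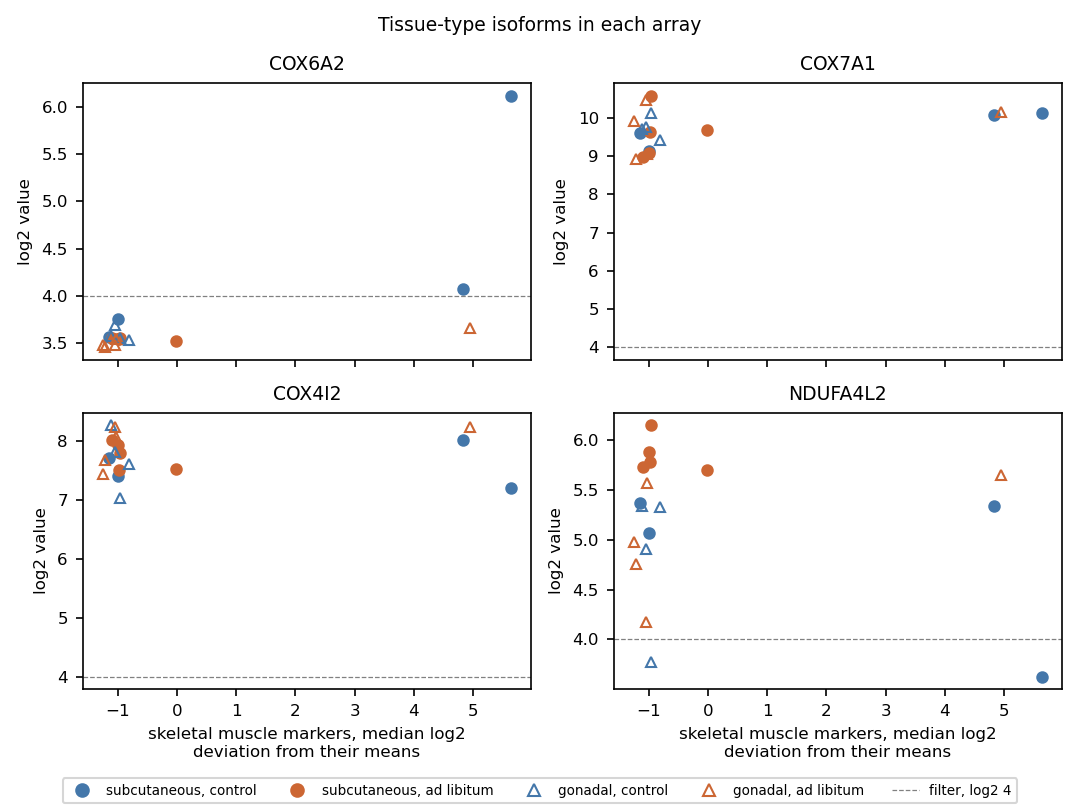
Log2 values (y axis) of COX6A2, COX7A1, COX4I2 and NDUFA4L2 in the 18 arrays against the median deviation of the 19 skeletal muscle markers in the same array (x axis, log2), with filled circles for subcutaneous and open triangles for gonadal fat, control in blue and ad libitum in orange. The dashed line is the filter at log2 4, which COX6A2 exceeded only in the subcutaneous arrays of dogs 3 and 4.

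Genes that work with the chain were described by the same counts. Of 14 tested complex I assembly factors 13 lay higher in subcutaneous fat of ad libitum dogs (median 0.35) and 1 passed, NDUFAF1, an early assembly factor (0.56 ± 0.11, adjusted p = 0.0236). Of 25 tested assembly factors of complexes II to V, 21 lay higher (median 0.38) and 3 passed. These were SDHAF2, which inserts the flavin of SDHA (1.17 ± 0.20, adjusted p = 0.0167), HIGD1A, a hypoxia-induced partner of complex IV (1.18 ± 0.23, adjusted p = 0.0236), and ATPAF2, an assembly factor of complex V (1.41 ± 0.34, adjusted p = 0.0448). All 18 genes of pyruvate entry and the citric acid cycle lay higher (median 0.59), and 1 passed, DLAT of the pyruvate dehydrogenase complex (1.43 ± 0.34, adjusted p = 0.0428). Of 68 mitochondrial ribosomal proteins 57 lay higher (median 0.25) and 0 passed. At an unadjusted p under 0.05 (limma) 17 were higher, beside 14.9% of all probe sets, and 0 were lower, beside 8.76%. In these 4 lists together 5 of 125 genes rose and 0 fell, beside 1.9% and 0.451% of all probe sets.

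In gonadal fat the same 4 lists had median feeding differences of 0.04, 0.04, 0.14 and -0.06, and 0 genes passed in any of them. For depot in the ad libitum dogs their medians were -0.35, -0.20, -0.23 and -0.18. Here HIGD1A fell by 1.31 (SE 0.22, adjusted p = 0.00242) and SDHAF2 by 0.88 (SE 0.19, adjusted p = 0.0114), and NDUFAF1 fell by 0.39 (SE 0.10, adjusted p = 0.0271). The ribosomal protein genes MRPS28 and MRPL55 fell by 0.68 and 0.69 (adjusted p = 0.0162 and 0.024), and no citric acid cycle gene passed. These are 5 of 125 genes, close to the 4.36% of all probe sets called lower. In the control dogs 0 genes of the 4 lists passed, and their medians were 0.07, 0.17, 0.27 and 0.11.

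Of the 36 genes with more than 1 tested probe set, the 51 further probe sets had the sign of the representative in 50 cases for feeding in subcutaneous fat and in 50 for the difference of responses. The number was 33 for feeding in gonadal fat, 39 for depot in control dogs and 41 for depot in ad libitum dogs. Over all 115 member probe sets that were tested, 2 were called for feeding in subcutaneous fat, both higher, and 5 for depot in ad libitum dogs, all lower. These shares are close to the 1.9% of all probe sets called higher and the 4.36% called lower in those comparisons. Centring each array on its median gave 0.54 and -0.05 for feeding in subcutaneous and gonadal fat.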

How the data were processed

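Total RNA was labelled as biotin cRNA and hybridised to Affymetrix canine arrays, 1 per depot and dog. The deposited log2 values come from GCRMA, as the submitters' processing notes state, with its version and options not given in the sources used here. Their base is read as log2 from their range, 0.68 to 16.51. Array medians were 3.65 to 3.87, and 47.2% to 49.0% of probe sets reached log2 4 per array. Gene symbols are those of the platform annotation, and 63 of the 65 members matched a RefSeq gene. The 5 probe sets that pair a member symbol with others were left out.

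R 4.3.3 with limma 3.58.1 fitted the 4 group means over 18 arrays with no block for the dog (14 residual degrees of freedom, 2.54 added by moderation), with Benjamini-Hochberg adjustment over 21484 probe sets, two-sided, threshold 0.05. The number of arrays limits the precision. The fit was tested on simulated data. Errors after ± are standard errors. The members and the lists were chosen with earlier results of these data known. Named are, per comparison, members that passed, the 2 smallest p and both extremes of each complex, isoform pairs, CYCS, CYC1, complex II, and up to 3 genes of a list. The 13 subunits whose depot difference separated the feeding groups were named in part outside that rule. Depots are paired by the dog's number in the labels. After group means were removed, the 2 arrays of dogs 1 to 9 correlated by 0.26, 0.53, 0.18, -0.05, 0.31, 0.01, 0.30, 0.35 and 0.08. Alternatives were other filters, normalization, moderation, arrays, blocks, covariates and probe set rules. Those with adipocyte markers as a covariate, and without both dog 2 and the 4 arrays rich in muscle or ciliary markers, were added after seeing the data. Sequences were not used here.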

Additional observations from a re-analysis of the deposited data

Results flagged for a closer look

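Single arrays that stood apart from the rest of their group were looked for in 188 sets of values (the named genes and the complex medians in each of the 4 groups) by the gap of the outermost array to the next, as a share of the group's range (Dixon's test). Such an array was found in 22 of the 188, and chance alone gives about 1 in 20. The sets share arrays, so the 22 are not independent. Many of the genes were named by their p or difference in these same arrays, so the rate of 1 in 20 need not hold for them.

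In gonadal fat of the ad libitum dogs, dog 2 stood above the other 4 for ATP5J2 (12.54), ATP5MC1 (11.84), COX8A (11.72), NDUFA2 (12.44), SDHA (12.04), UQCRC1 (12.66) and UQCRC2 (11.14), and in the median deviation of complex V (0.33). Dog 2 also stood above the others in subcutaneous fat for NDUFS3 (12.68). In gonadal fat of the control dogs, dog 3 stood below the other 3 for ATP5MC3 (12.65), COX4I1 (12.62), NDUFA4 (11.44), UQCR11 (9.03), UQCRC1 (11.24), UQCRFS1 (11.03) and UQCRH (13.89), and in the median deviation of complex III (-0.56). In subcutaneous fat of the control dogs, dog 3 was low for NDUFA4L2 (3.63, under log2 4). Dog 4 was low for COX7A2L (8.65) and NDUFA11 (9.53), and dog 9 was high for NDUFV2 (11.43). COX6A2 in subcutaneous fat of ad libitum dog 7 (3.52) lay under the filter, where values have no order.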

How the results depend on the processing

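All 5 median differences of the 64 genes moved by less than the spread between arrays (SD 0.29) in every alternative run. That is a wide limit for medians of this size. Feeding in subcutaneous fat went from 0.49 to 0.20 with adipocyte markers as a covariate. With the actin gap as a covariate the difference of responses went from -0.50 to -0.25 and depot in control dogs from 0.18 to -0.06. Feeding in gonadal fat, near 0, took either sign. Counts of calls moved for 2 comparisons. For feeding in subcutaneous fat, 0 in the fit reported, the probe set with the largest variance gave 2 (NDUFA7 and NDUFC1, named after their values were seen), and leaving out each dog gave 0 to 20, the highest without dog 5. For depot in ad libitum dogs there were 2 in the fit reported. There were 0 with no filter, 3 with the filter at log2 6, 1 after quantile normalization again and 4 with arrays centred on their median. Trended and robust moderation gave 3, muscle markers as a covariate 3, and a fit of only the arrays of the comparison 0. The largest-variance probe set gave 4, in the fit reported, which called 4.36% of all probe sets lower. For the other fits listed so far the share of all probe sets is not given here. With the dog as a random block (correlation 0.17) there were 8, and with the dog as a fixed block 12. Leaving out each dog gave 0 to 6. Without the 4 arrays rich in muscle or ciliary markers there were 5, and with the actin gap as a covariate 8. In the 2 alternatives added after seeing the data there were 16 (adipocyte markers) and 4 (without dog 2 and those arrays). For the second of these the share of all probe sets is not given here. The block changed no call in the other comparisons in which it could be fitted. It raised the subunits at an unadjusted p under 0.05 for the difference of responses from 8 to 18 (random) and 35 (fixed). A fixed block cannot be fitted for feeding within a depot. No alternative gave a call for feeding in gonadal fat, depot in control dogs or the difference of responses. Of 2544 values of named genes under an alternative, 2372 kept their direction and side of the threshold, 40 newly passed and 20 no longer passed. The other 112 were counted as moved, which means a change of sign, of any size, without passing in either fit. The mean of the probe sets of a gene has no test. Its values were counted as kept or moved by whether they shifted by less than the gene's standard error. The causes were not tested.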

Other observations

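Regulators of mitochondrial biogenesis lay on both sides of 0. Of 14 tested regulators 9 lay above 0 for feeding in subcutaneous fat (median 0.12), and 0 passed. At an unadjusted p under 0.05 (limma) 1 was higher, beside 14.9% of all probe sets, and 2 were lower, beside 8.76%. ESRRA, an orphan nuclear receptor that acts with PGC-1 coactivators on respiratory genes, differed by 1.22 ± 0.36 (adjusted p = 0.0752), and PPRC1, a member of the PGC-1 family, by -0.73 ± 0.21 (adjusted p = 0.0678). In gonadal fat TFAM, which packs and transcribes mitochondrial DNA, differed by 0.62 ± 0.38 (adjusted p = 1). PPRC1 was the 1 regulator that passed in any comparison: it fell by 0.92 from subcutaneous to gonadal fat in control dogs (SE 0.22, adjusted p = 0.0327). ESRRA stood at -0.998 ± 0.341 for depot in the ad libitum dogs (adjusted p = 0.0855).

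Of 13 tested carriers, porins and uncoupling proteins of the mitochondrial membranes 10 lay above 0 for feeding in subcutaneous fat (median 0.11), and 0 passed. At an unadjusted p under 0.05 (limma) 4 were higher, beside 14.9% of all probe sets, and 1 was lower, beside 8.76%. For depot in ad libitum dogs 2 of 13 passed, beside 4.36% of all probe sets called lower. SLC25A12, an aspartate and glutamate carrier, fell by 0.82 (SE 0.17, adjusted p = 0.00918), and SLC25A5, an exchanger of ADP and ATP, by 1.09 (SE 0.31, adjusted p = 0.0418). VDAC1, a channel of the outer membrane, differed by 0.50 ± 0.15 with feeding in subcutaneous fat (adjusted p = 0.081) and its difference of responses was -0.56 ± 0.21 (adjusted p = 0.748). UCP2 and UCP3, relatives of the brown fat uncoupling protein, stood at -1.23 ± 0.45 and -1.85 ± 0.73 for depot in control dogs (adjusted p = 0.133 and 0.17). UCP3 is known mainly from skeletal muscle, and the subcutaneous arrays of control dogs 3 and 4 carried muscle transcripts, whose part in that value was not tested.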
